A study of Homo sapiens with 14 samples.

Results

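Interferon-stimulated genes outside the OAS family were followed in human NUGC4 cells, a line from a gastric cancer, and in HepG2 cells, a line from a liver cancer. The 47 genes were chosen by symbol as effectors of the type I interferon response and the STAT and IRF factors that drive it. All 47 were found among the 59250 gene symbols of the count table. RNA captured by its poly(A) tail was sequenced, and 13 libraries with a name that matched a sample were compared. All cells grew in the same medium, and the labels name no interferon treatment.

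NUGC4 was represented by 4 libraries of unmodified parental cells (wild type). Knockout replicate 1 came from single-cell clones made with CRISPR-Cas9 constructs against ARID1A, which encodes the DNA-binding subunit of BAF complexes that remodel chromatin, and is 1 library. A second library carries the knockout label, but its ARID1A level goes against it. It is called the library labelled knockout replicate 2 and entered no comparison unless stated. The table held 1 more column with a knockout name, which matched no sample's labels and was not used. CRISPR interference (CRISPRi), which represses a gene at its promoter without cutting it, was directed at ARID1A with the guide sgRNA1 in 2 libraries, and 1 library of its vector control could be matched by name. In HepG2, 2 libraries of cells with the empty vector were set against 2 libraries of cells infected at low multiplicity with a lentivirus. Its EF1α promoter drives a FLAG-tagged CTNNB1 that lacks exon 3, joined to GFP. That exon holds the degradation signal of beta-catenin.

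Interferons bind receptors at the cell surface, and the receptor-bound kinases JAK1 and TYK2 then phosphorylate STAT proteins, STAT2 among them. With IRF9 these form the factor ISGF3, which binds the interferon-stimulated response element (ISRE) in promoters, whereas dimers of STAT proteins bind the gamma-activated sequence (GAS). The genes induced in this way block entry, translation, replication or release of viruses, tag proteins with ubiquitin or ISG15, and feed back on the pathway, and many epithelial cells keep low levels of them without added interferon.

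Promoters were looked at first, because the binding element is a feature that the members could share. The members were chosen as known interferon effectors, so an excess of its letters among them follows from the choice. The shares below are a description only. A RefSeq table of promoters (GRCh38.p14, 250 bases before to 50 bases after a single annotated start per gene) held 40 of the 47 members. Alternative starts were not looked at. The windows of IFI27, ISG20, DDX60 and XAF1 lie inside the RefSeq span of the gene, not at its outer end. The ISRE was searched as the letters GAAANNGAAA on both strands, and matches could overlap. They occurred in 26 of the 40 members' promoters (65%), against 996 of all 27305 promoters (3.65%). The GAS letters TTCNNNGAA, which read the same on both strands and overlapped an ISRE match in some promoters, occurred in 9 members (22.5%) and in 7.88% of all promoters. Members' promoters held a median of 8.5 CG dinucleotides and all promoters 14, so base composition differed too. A match is a run of letters and was not tested for binding.

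The 160 bases before the start are shown for 4 members with ISRE letters whose changes are described below, with ISRE matches in capitals on the strand of the gene. ISG15 lies at chr1:1013337-1013496 on the plus strand, IFIT1 at chr10:89392463-89392622 on the plus strand, IFI6 at chr1:27672193-27672352 on the minus strand and BST2 at chr19:17405631-17405790 on the minus strand. In IFIT1 the letters run on the opposite strand and appear as their reverse complement. BST2 and ISG15 each carry 2 matches that overlap, and IFI6 carries 3 that stand apart.
ISG15: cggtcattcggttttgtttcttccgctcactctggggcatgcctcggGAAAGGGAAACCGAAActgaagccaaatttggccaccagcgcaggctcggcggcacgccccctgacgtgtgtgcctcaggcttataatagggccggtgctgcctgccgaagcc
IFIT1: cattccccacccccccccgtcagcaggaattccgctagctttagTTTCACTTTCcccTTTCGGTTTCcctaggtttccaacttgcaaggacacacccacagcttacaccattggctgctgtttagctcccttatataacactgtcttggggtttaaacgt
IFI6: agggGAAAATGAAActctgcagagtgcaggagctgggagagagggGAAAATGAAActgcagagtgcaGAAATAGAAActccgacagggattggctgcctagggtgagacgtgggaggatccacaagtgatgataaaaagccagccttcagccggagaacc
BST2: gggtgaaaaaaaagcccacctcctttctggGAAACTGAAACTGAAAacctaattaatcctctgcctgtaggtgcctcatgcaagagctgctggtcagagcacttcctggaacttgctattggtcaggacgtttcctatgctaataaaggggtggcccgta

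A further 4 windows are shown to set the neighbouring genes SAMD9 (chr7:93117980-93118139) and SAMD9L (chr7:93148386-93148545), which moved in opposite directions under CRISPRi, beside UBE2L6 (chr11:57567936-57568095) and TRIM25 (chr17:56914050-56914209). All lie on the minus strand. SAMD9 holds 1 match in capitals, and the 3 other windows hold none, though SAMD9L holds the near match AAAACTGAAA.
SAMD9: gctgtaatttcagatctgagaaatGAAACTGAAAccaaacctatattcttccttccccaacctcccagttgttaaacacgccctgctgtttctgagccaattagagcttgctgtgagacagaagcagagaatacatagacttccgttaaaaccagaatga
SAMD9L: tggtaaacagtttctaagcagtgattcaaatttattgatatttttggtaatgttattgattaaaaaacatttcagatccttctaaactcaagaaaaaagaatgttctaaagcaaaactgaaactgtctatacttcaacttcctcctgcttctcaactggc
UBE2L6: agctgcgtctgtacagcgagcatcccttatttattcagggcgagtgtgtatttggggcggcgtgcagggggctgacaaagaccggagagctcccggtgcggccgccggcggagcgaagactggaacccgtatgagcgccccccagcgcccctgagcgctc
TRIM25: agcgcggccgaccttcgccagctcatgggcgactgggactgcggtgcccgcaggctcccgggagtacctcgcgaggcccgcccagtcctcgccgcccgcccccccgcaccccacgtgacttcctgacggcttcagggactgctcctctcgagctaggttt

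In the knockout comparison the median log2 fold change was 1.60 over the 26 members with ISRE letters and 1.53 over the 14 without. Of the former 24 passed as higher and none as lower, and of the latter 13 passed as higher and 1 as lower. Under CRISPRi the medians were 0.66 and 0.78. Of the 3 members with the largest knockout change, BST2 held ISRE letters in this window and RSAD2 and UBE2L6 held none. The letters have a fixed spacing, so near matches were counted as none. The promoters of RSAD2 and XAF1 hold GAAACGAAA, with 1 base between the repeats, and that of TRIM25 holds its reverse complement. The split is by exact letters, and whether near matches bind was not tested.

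**Figure D1:**
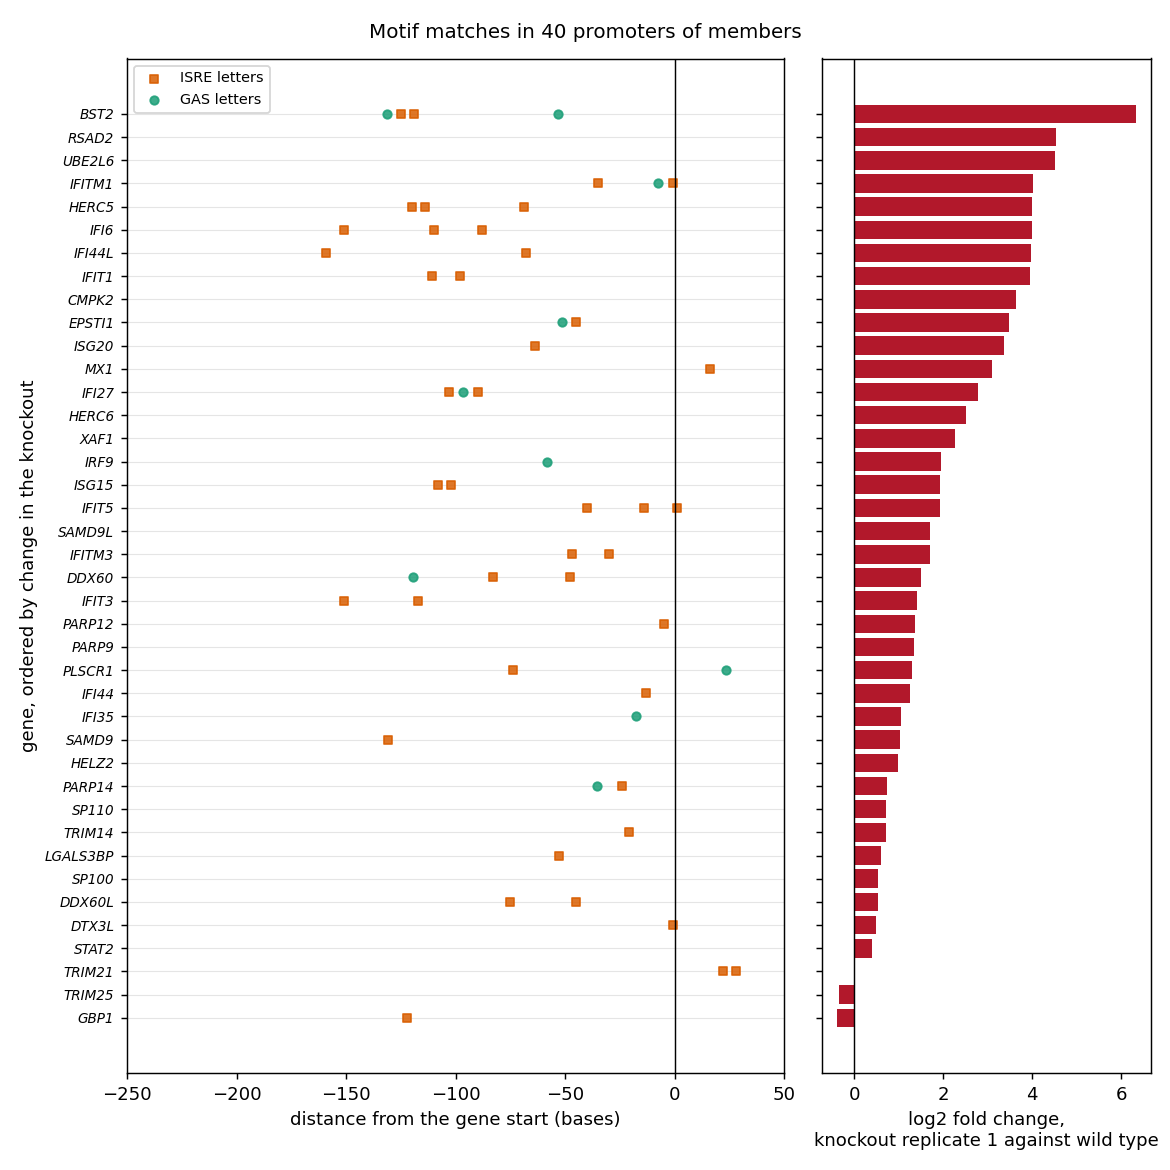
Positions of ISRE and GAS letters in 40 members' promoters (left) beside the log2 fold change of knockout replicate 1 against wild type (right, bars). Squares are ISRE and circles GAS, by distance in bases from the annotated start used for each gene. Members are ordered by that change, and matches stand in promoters from the top to the bottom of the order, 26 of 40 with ISRE letters.

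ARID1A itself stood at 116, 121, 104 and 103 CPM (counts scaled to a common library size, with TMM factors over the 13 libraries) in wild type, at 33.5 CPM in knockout replicate 1 and the library labelled knockout replicate 2 held 137 CPM. The control vector library held 134 CPM and the sgRNA1 libraries 58.7 and 54.9 CPM. Total counts ran from 9167761 to 23914120 per library. The share of counts from ribosomal RNA was 8.04 to 11.7% in wild type, 6.30% in knockout replicate 1 and 0.162 to 0.252% in every other library, HepG2 included. The knockout comparison and the CRISPRi comparison therefore each stay within 1 kind of library. All 10 hepatocyte markers reached 1 CPM in HepG2. Of 12 gastric and gut epithelium markers 9 reached 1 CPM in wild-type NUGC4, and TFF2 had no counts in any library. That list summed to 4813 to 5298 CPM in wild type and 9894 CPM in knockout replicate 1, and to 9645 CPM in the vector library and 13315 to 13812 CPM with sgRNA1. KRT8, KRT18 and KRT19 gave most of these sums. CDX2 and VIL1 went the other way in the knockout. CDX2 was at 3.73 to 5.97 CPM in wild type and 0.737 CPM in knockout replicate 1, and VIL1 at 202 to 226 CPM and 127 CPM. The sum rose in both ARID1A comparisons, but the vector library, with ARID1A not lowered, stood near knockout replicate 1. The part of these markers in the results was not tested. Of 8 leukocyte markers 3 reached 1 CPM in each NUGC4 group. They summed to 1678 to 1839 CPM in wild type, 1276.6 CPM in knockout replicate 1, 2674 CPM in the vector library and 2618 to 2725 CPM with sgRNA1, nearly all of it from LYZ, while CD3E had no counts and PTPRC at most 0.365 CPM. Of 9 fibroblast and endothelium markers 1 or 2 reached 1 CPM in NUGC4, with COL1A1 giving most of sums that ran from 15.8 to 27.2 CPM, and COL1A2 had no counts.

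Nearly all members were higher in knockout replicate 1 than in wild type. By edgeR's quasi-likelihood test with Benjamini-Hochberg adjustment over all genes, 44 of 47 members were higher, 1 was lower (TRIM25) and 2 did not pass (GBP1 and TRIM21), at an adjusted p under 0.05. Over all 18913 genes tested, 19.5% were higher and 18.7% lower. The members' median log2 fold change was 1.69, against -0.07 over all genes, and 35 members rose at least 2-fold. The tetherin gene BST2, the viperin gene RSAD2 and the ISG15-conjugating enzyme UBE2L6 changed most. Knockout replicate 1 is a single library, and the fit takes its spread from the groups that have replicates. It came from single-cell clones and wild type was unmodified, so cloning, the constructs and loss of ARID1A cannot be told apart. Since the labels do not say whether libraries came from separate cultures, the p-values cover only the variation among these libraries, which may be technical. In bulk RNA, more cells with a transcript and more transcript per cell cannot be told apart.

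**Figure D2:**
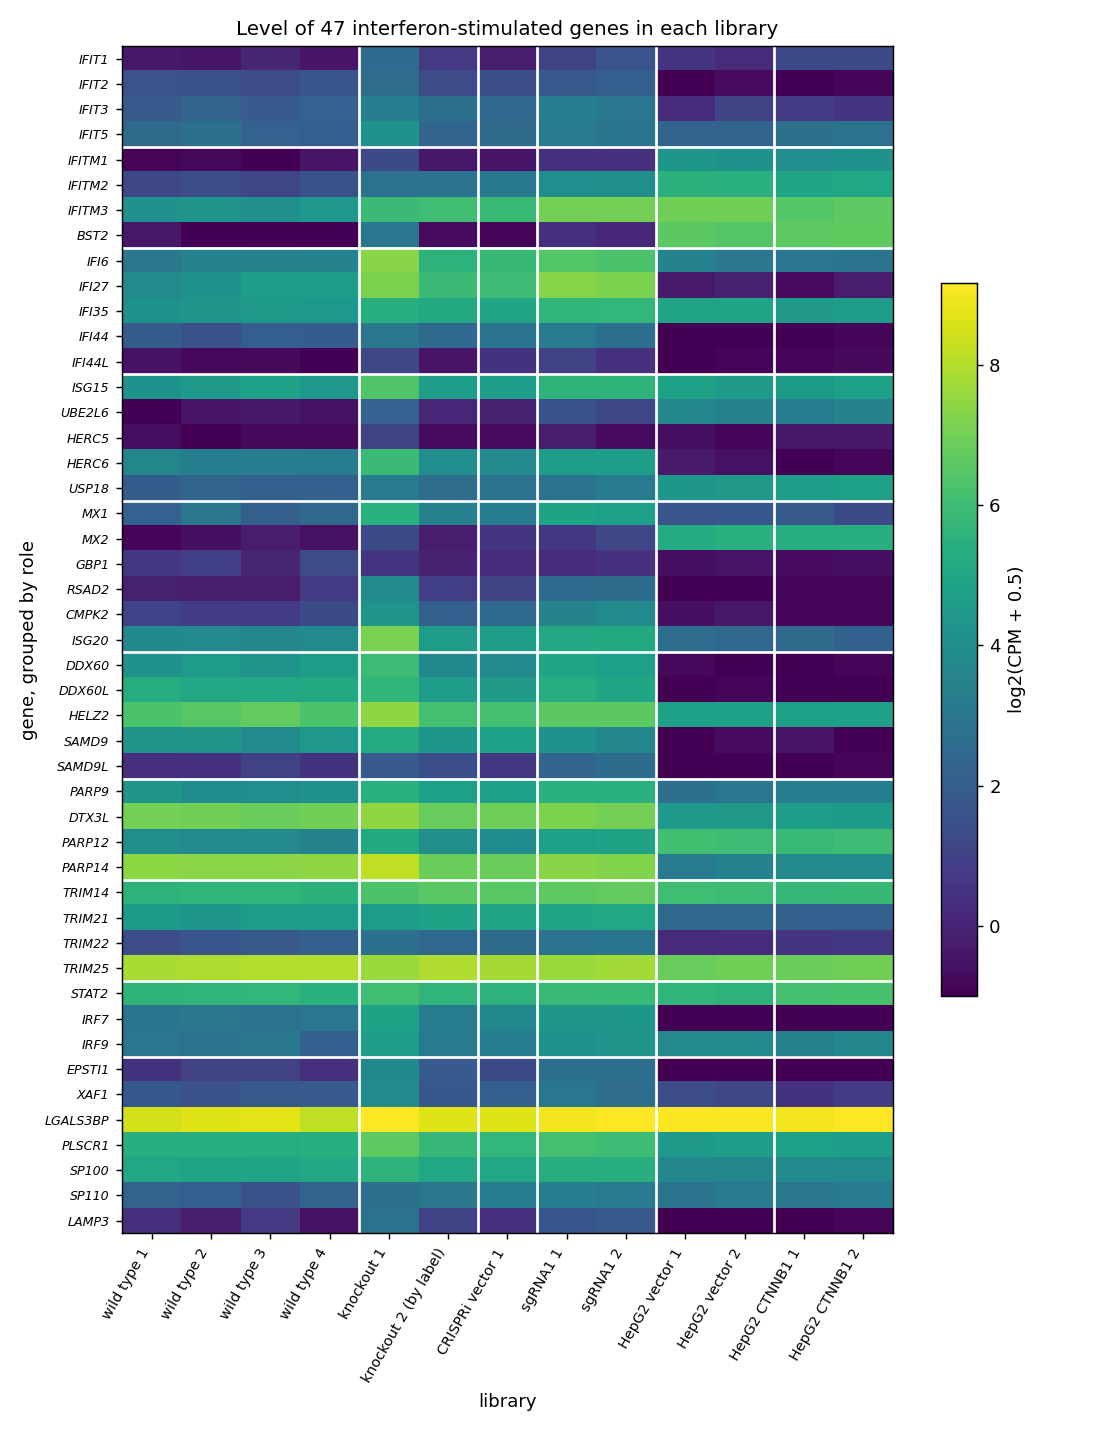
Level of each of the 47 members (rows, grouped by role) in each of 13 libraries (columns), as the log2 of CPM plus 0.5, from dark (low) to yellow (high). The column of knockout replicate 1 is brighter than the wild-type columns in 44 rows, and several rows of HepG2 are at or near the bottom of the scale.

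The IFIT proteins bind viral RNA that lacks host cap marks and hold it from translation, and their genes sit side by side on chromosome 10 (89283694 to 89421001, GRCh38). All 4 rose in the knockout. Since 45 of all 47 members had a positive log2 fold change there, rising together is not particular to these neighbours. IFIT1 was at 0.282, 0.240, 0.578 and 0.274 CPM in wild type and 5.38 CPM in knockout replicate 1. The wild-type values rest on 16 counts in all, and the knockout library lay well above each of them (log2 fold change 3.96 ± 0.45, SE; adjusted p = 1.80e-06). IFIT5 stood at 3.56 to 6.23 CPM in wild type and at 18.4 CPM in the knockout (log2 1.92 ± 0.23). IFIT3 stood at 3.03 to 4.48 CPM and 10.0 CPM (log2 1.42 ± 0.25), and IFIT2 at 2.02 to 2.74 CPM and 5.75 CPM (log2 1.23 ± 0.28). None of the 4 had a wild-type library that reached the knockout value.

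Membrane restriction factors act at the cell surface or in endosomes: IFITM proteins hinder the fusion of viral and cell membranes, and BST2 tethers budding virus. Each of the 4 rose. BST2 was counted in 1 wild-type library (0.282, 0, 0 and 0 CPM, 4 counts in all) and stood at 7.37 CPM in the knockout. It had the largest change of the 47 members, log2 6.32 ± 0.64 (adjusted p = 3.92e-07). IFITM1 was at 0.0705, 0.0799, 0 and 0.274 CPM in wild type and 1.84 CPM in the knockout (log2 4.02 ± 0.80). IFITM3 was at 18.1, 18.5, 16.4 and 20.8 CPM and 60.4 CPM (log2 1.70 ± 0.12). Per kilobase of exon IFITM3 was the highest of the group in wild type, at 13.7 CPM per kilobase against 1.34 for IFITM2 and 0.0982 for IFITM1. IFITM2 was at 1.83, 2.24, 1.73 and 2.47 CPM and 6.71 CPM (log2 1.69 ± 0.25). The 3 IFITM genes are near-identical in part, and IFITM1 and IFITM2 share exon bases in the GENCODE v29 annotation, so reads may have been split between them.

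The IFI genes are named for their induction by interferon. IFI6 and IFI27 encode small proteins of mitochondria and the endoplasmic reticulum, IFI44 and IFI44L are related and adjacent genes on chromosome 1, and IFI35 encodes a leucine zipper protein. All 5 rose. IFI6 was at 7.61, 11.2, 10.98 and 11.1 CPM in wild type and 163 CPM in the knockout. The log2 fold change was 3.99 ± 0.14 (adjusted p = 2.40e-13), with the knockout library far above wild-type libraries that differed little among themselves. IFI27 was at 14.1, 17.5, 25.6 and 25.7 CPM and 142 CPM (log2 2.78 ± 0.19). IFI35 was at 18.1, 19.0, 21.6 and 21.0 CPM and 41.7 CPM (log2 1.06 ± 0.14). IFI44L was close to the limit of detection in wild type (0.211, 0.0799, 0.0963 and 0 CPM, 5 counts in all) and reached 1.77 CPM (log2 3.97 ± 0.76). IFI44 was at 2.40 to 3.56 CPM in wild type and at 7.74 CPM in the knockout (log2 1.26 ± 0.27). In each case the knockout library was above all 4 wild-type libraries.

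ISG15 is a ubiquitin-like protein, joined to targets by the enzyme UBE2L6 and the ligase HERC5 and removed by the protease USP18, which also restrains the receptor. HERC6 is the relative of HERC5 beside it on chromosome 4. All 5 of these genes rose. ISG15 was at 18.2, 21.7, 28.02 and 21.0 CPM in wild type and 84.6 CPM in the knockout (log2 1.92 ± 0.15, adjusted p = 2.00e-08). UBE2L6 was at 0, 0.240, 0.289 and 0.183 CPM, 8 counts in all, and 4.05 CPM (log2 4.51 ± 0.58). HERC5 was at 0.141, 0, 0.0963 and 0.0913 CPM, 4 counts in all, and 1.47 CPM (log2 4.00 ± 0.95). The wide SE of the last 2 goes with their few wild-type counts. HERC6 was at 11.9, 9.91, 9.73 and 9.497 CPM and 59.7 CPM (log2 2.52 ± 0.14), and USP18 at 3.52 to 4.48 CPM and 8.70 CPM (log2 1.12 ± 0.23).

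Of the antiviral GTPases and enzymes 5 of 6 rose, and GBP1, a GTPase best known as a target of interferon gamma, did not pass. MX1, a GTPase that assembles on viral nucleocapsids, was at 4.09, 7.91, 3.76 and 4.93 CPM in wild type and 44.7 CPM in the knockout (log2 3.09 ± 0.21). Its relative MX2 was at 0.0705, 0.160, 0.385 and 0.183 CPM and 1.92 CPM (log2 3.27 ± 0.66). GBP1 stood at 1.06, 1.36, 0.578 and 2.01 CPM in wild type and 0.958 CPM in the knockout, within the wild-type range (log2 -0.39 ± 0.63, adjusted p = 0.653). RSAD2, which makes a chain-terminating nucleotide from CTP, was at 0.423, 0.400, 0.385 and 1.19 CPM and 13.8 CPM (log2 4.53 ± 0.33, adjusted p = 6.45e-09). CMPK2, a nucleotide kinase whose gene lies head to head with RSAD2 on chromosome 2, was at 1.55, 1.20, 1.25 and 1.92 CPM and 18.5 CPM (log2 3.63 ± 0.24). ISG20, an exonuclease, was at 12.8, 13.1, 12.7 and 13.7 CPM and 137 CPM (log2 3.38 ± 0.11). Its wild-type libraries were close together and the knockout library stood far above them.

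The helicase-like genes DDX60, DDX60L and HELZ2 and the growth-restraining, antiviral genes SAMD9 and SAMD9L all rose, with a median log2 fold change of 1.03. DDX60 was at 18.2, 24.4, 18.8 and 25.2 CPM in wild type and 61.8 CPM in the knockout (log2 1.503 ± 0.16). DDX60L was at 38.5, 34.0, 32.8 and 35.8 CPM and 51.5 CPM (log2 0.53 ± 0.14). SAMD9 was at 19.4, 18.6, 14.1 and 21.0 CPM and 37.6 CPM (log2 1.03 ± 0.18). SAMD9L, its neighbour on chromosome 7, was the rarer transcript of the pair, at 0.143 CPM per kilobase of exon in wild type against 2.66 for SAMD9. It was at 0.846, 0.879, 1.44 and 0.913 CPM and 3.32 CPM (log2 1.70 ± 0.37), and HELZ2 at 77.7 to 105 CPM and 175 CPM (log2 0.98 ± 0.14).

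PARP9, PARP12 and PARP14 belong to the ADP-ribosyltransferase family, and DTX3L is the ubiquitin ligase that partners PARP9, with which it shares a promoter region on chromosome 3. All 4 rose. PARP9 was at 19.4, 14.7, 15.2 and 17.2 CPM in wild type and 43.0 CPM in the knockout (log2 1.35 ± 0.14). PARP12 was at 16.2, 14.1, 13.1 and 11.3 CPM and 35.6 CPM (log2 1.36 ± 0.16). PARP14 was at 172, 169, 169 and 177 CPM and 289 CPM (log2 0.74 ± 0.10). The knockout library exceeded every wild-type library for each of these genes and for DTX3L, at 115 to 132 CPM in wild type and 178 CPM in the knockout (log2 0.50 ± 0.11).

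TRIM genes were the group that did not move together. TRIM14, an adaptor in sensing of viral nucleic acid, rose from 46.5, 49.1, 49.8 and 45.8 CPM to 79.2 CPM (log2 0.72 ± 0.11). TRIM22, a restriction factor, rose from 2.11, 2.72, 3.08 and 3.84 CPM to 6.27 CPM (log2 1.10 ± 0.29). TRIM21, a cytosolic antibody receptor, was at 22.8, 20.4, 24.2 and 25.3 CPM and 23.6 CPM (log2 0.02 ± 0.15, adjusted p = 0.944), inside the wild-type range. TRIM25, which ubiquitinates the RNA sensor RIG-I, fell from 231, 244, 257 and 257 CPM to 198 CPM (log2 -0.33 ± 0.11, adjusted p = 0.0257). This small fall did not pass when only the compared groups entered the fit, without a filter on low counts, or with the library labelled knockout replicate 2 kept in the group.

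The 3 transcription factors of the module rose. IRF9, the DNA-binding part of ISGF3, was at 7.47, 6.47, 7.70 and 3.93 CPM in wild type and 24.9 CPM in the knockout (log2 1.94 ± 0.22). IRF7, which amplifies interferon production, was at 7.19, 7.67, 6.55 and 7.40 CPM and 28.8 CPM (log2 1.98 ± 0.16). STAT2 was at 44.9 to 51.9 CPM and 64.7 CPM (log2 0.40 ± 0.12). In all 3 the knockout library lay above wild type.

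All 7 other induced genes rose, over a wide range. EPSTI1, a stromal-interaction gene, was at 0.916, 1.44, 1.44 and 0.822 CPM in wild type and 12.9 CPM in the knockout (log2 3.47 ± 0.27). LAMP3, a lysosomal membrane protein, was at 0.775, 0.400, 1.16 and 0.183 CPM and 6.71 CPM (log2 3.39 ± 0.43). XAF1, a pro-apoptotic factor, was at 2.40 to 3.29 CPM and 14.4 CPM (log2 2.27 ± 0.23). Smaller rises were those of PLSCR1, a phospholipid scramblase (1.29 ± 0.11), SP110 and SP100 of nuclear bodies (0.73 ± 0.27 and 0.55 ± 0.13), and the secreted glycoprotein LGALS3BP (0.61 ± 0.15), all on the log2 scale. The call of SP110 was lost without wild-type replicate 2 or 3, without either sgRNA1 library, and by the Wald test of DESeq2. IRF9, XAF1, SP110 and TRIM22 overlap other annotated genes, PARP9 overlaps DTX3L and CMPK2 overlaps RSAD2, and the strand setting of the counting is not given in the sources used here, so reads of such partners cannot be told apart.

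Levels of different genes were compared per kilobase of exon (GENCODE v29). In wild type LGALS3BP was the highest member at 104 CPM per kilobase, followed by TRIM25 at 26.0 and ISG15 at 23.6. In knockout replicate 1 IFI6 was first at 189 CPM per kilobase, from the eighth place in wild type at 11.8. LGALS3BP came next at 159.7 and ISG15 after it at 89.9, while IFI44L, last in wild type at 0.00946, was at 0.173. The median member stood at 4.93 to 7.67 CPM in the wild-type libraries, 24.9 CPM in knockout replicate 1, 9.34 CPM in the vector library and 17.0 and 19.4 CPM with sgRNA1. In HepG2 it stood at 5.70 and 4.97 CPM with the vector.

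Fewer members passed under CRISPRi, with IFITM3, MX1, RSAD2, EPSTI1 and SAMD9L among those that rose. With sgRNA1, 22 of 47 members were higher than in the vector library, 1 was lower (SAMD9) and 24 did not pass. Over all 18913 genes 4.62% were higher and 4.11% lower. The median log2 fold change of the members was 0.69, against 0.00 over all genes, and 10 members rose at least 2-fold. All 22 that rose were also higher in the knockout, a comparison with its own controls in which 44 of 47 members were higher. Across the 47 members the log2 fold changes of the comparisons had a Pearson r of 0.75, against 0.38 over the 18913 genes, as a description over genes, which are not replicates. The vector group is 1 library, and the number of members called higher fell to 13 without sgRNA1 replicate 1 and to 9 without sgRNA1 replicate 2. Without replicate 2 the rises of IFIT1, IFITM2, IFI6, IFI35, UBE2L6, RSAD2, CMPK2, ISG20, PARP9, PARP12, PARP14, IRF7 and IRF9 and the fall of SAMD9 did not pass. Without replicate 1 the rises of IFITM2, IFI6, UBE2L6, ISG20, DDX60L, PARP9, PARP14, IRF7 and IRF9 did not pass. Those of IFITM3, IFI27, ISG15, HERC6, MX1, DDX60, SAMD9L and EPSTI1 passed without either.

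**Figure D3:**
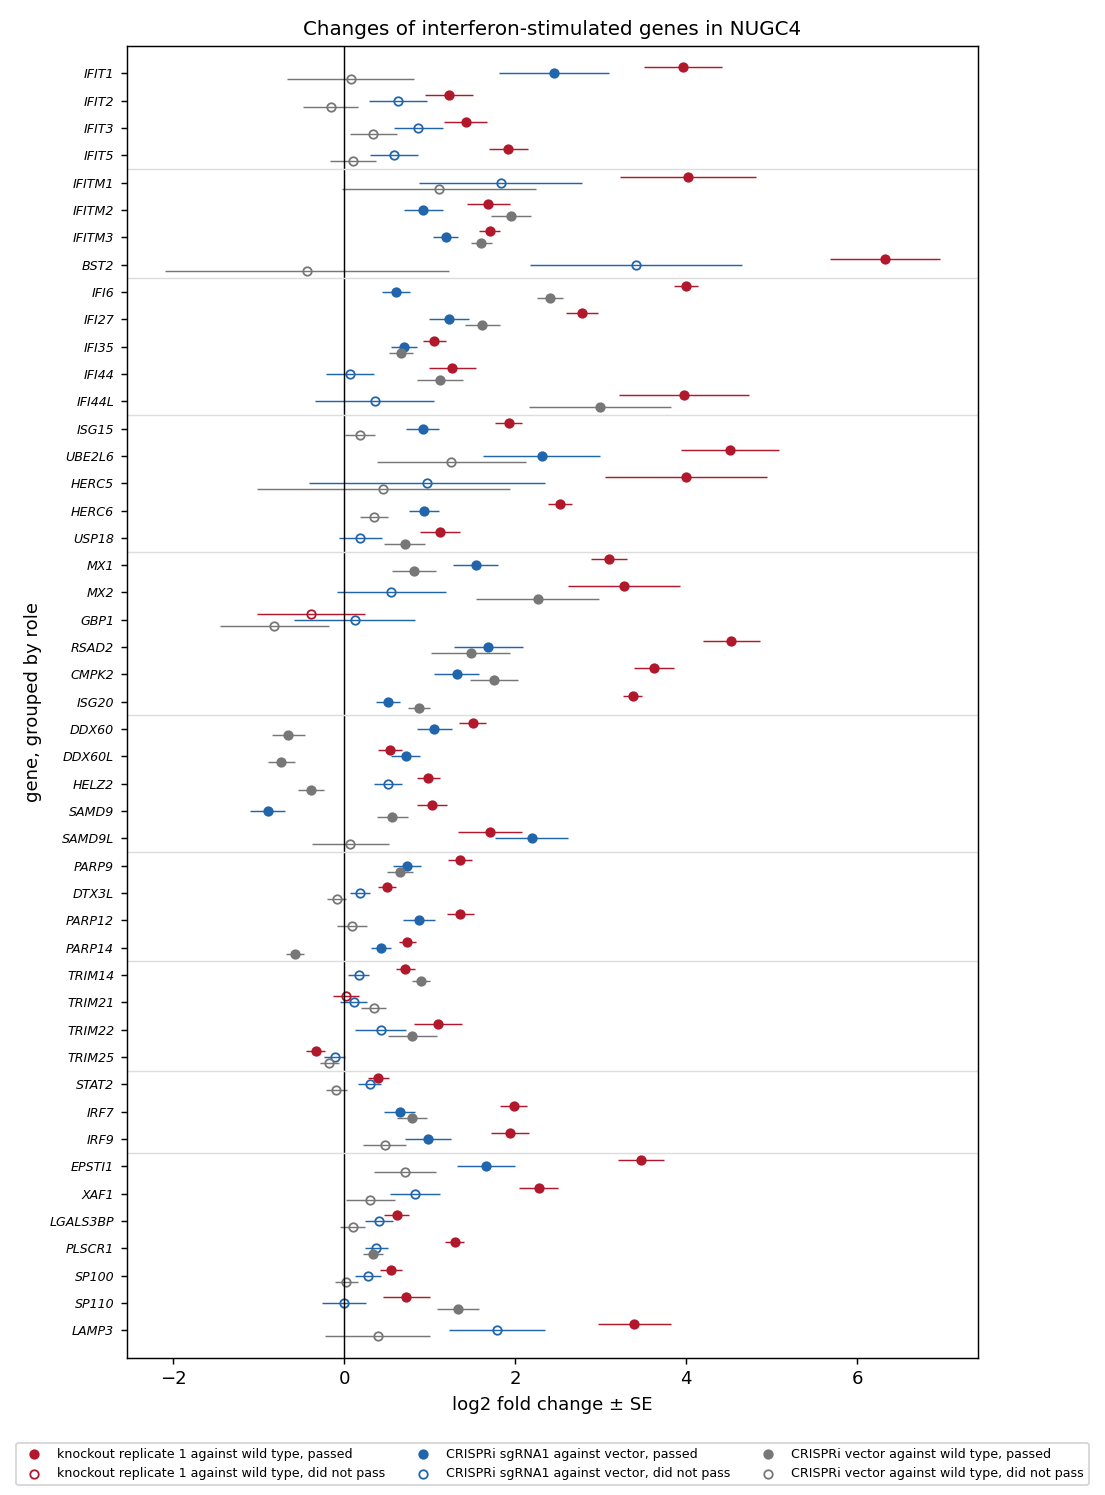
Log2 fold change with its SE for each of the 47 members (rows, grouped by role) in 3 NUGC4 comparisons: knockout replicate 1 against wild type (red), sgRNA1 against vector (blue) and the vector against wild type (grey). Filled points passed at an adjusted p under 0.05. Most red points lie to the right of the blue ones, and grey points lie on both sides of 0.

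Among the IFIT genes only IFIT1 passed, at 0.359 CPM in the vector library and 1.501 and 2.50 CPM with sgRNA1 (log2 2.45 ± 0.64, adjusted p = 0.0209). The others were higher in both sgRNA1 libraries without passing, with log2 values of 0.87 ± 0.28 for IFIT3, 0.63 ± 0.34 for IFIT2 and 0.58 ± 0.28 for IFIT5.

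Of the membrane factors IFITM3 and IFITM2 rose. IFITM3 was at 57.0 CPM in the vector library and 129.7 and 129.7 CPM with sgRNA1 (log2 1.18 ± 0.14, adjusted p = 2.43e-05). IFITM2 was at 8.14 CPM and 15.3 and 15.6 CPM (log2 0.93 ± 0.23). In both cases the sgRNA1 libraries were nearly alike. IFITM1 was at 0.239 CPM and 0.876 and 0.871 CPM and did not pass (log2 1.83 ± 0.95, adjusted p = 0.289). BST2 held 1 count in the vector library (0.0599 CPM) and 24 counts with sgRNA1 (0.813 and 0.639 CPM). The ratio was 12.1 with a 95% exact counting interval from 1.97 to 496.7, which covers counting error only, and the gene did not pass (adjusted p = 0.104).

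IFI6, IFI27 and IFI35 rose. IFI27 was at 64.2 CPM in the vector library and 159.5 and 140.5 CPM with sgRNA1 (log2 1.22 ± 0.23). IFI35 was at 32.1 CPM and 51.6 and 52.5 CPM (log2 0.69 ± 0.15). IFI6 was at 54.8 CPM and 88.4 and 78.4 CPM (log2 0.60 ± 0.17), a small step from a vector level that was already several times that of wild type. IFI44 (7.06 CPM against 8.76 and 6.10 CPM) and IFI44L (0.898 CPM against 1.44 and 0.871 CPM) had sgRNA1 libraries on both sides of the vector and did not pass.

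Of ISG15 and the genes grouped with it, UBE2L6, HERC6 and ISG15 rose. ISG15 was at 25.7 CPM in the vector library and 48.5 and 48.6 CPM with sgRNA1 (log2 0.92 ± 0.19, adjusted p = 0.00466). HERC6 was at 13.3 CPM and 25.5 and 25.7 CPM (log2 0.94 ± 0.18). UBE2L6 was at 0.419 CPM and 2.44 and 1.80 CPM (log2 2.31 ± 0.68), a call that was also lost without knockout replicate 1 or wild-type replicate 2. Without wild-type replicate 2 the calls of IFI6, ISG20, PARP14 and IRF7 were lost too. HERC5 had 2 counts in the vector library and 8 with sgRNA1 and did not pass, nor did USP18 (6.58 CPM against 6.69 and 8.31 CPM, log2 0.19 ± 0.25).

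Of the GTPases and enzymes MX1, RSAD2, CMPK2 and ISG20 rose. MX1 was at 9.34 CPM in the vector library and 28.2 and 26.3 CPM with sgRNA1 (log2 1.54 ± 0.26, adjusted p = 0.000790). RSAD2 was at 1.68 CPM and 5.32 and 5.52 CPM (log2 1.69 ± 0.40). CMPK2 was at 5.09 CPM and 11.1 and 14.2 CPM (log2 1.31 ± 0.26). The sgRNA1 libraries of these 3 genes stood clear of the vector. ISG20 was at 24.5 CPM and 34.5 and 35.3 CPM (log2 0.51 ± 0.14), well short of its knockout level. MX2, at 0.958 CPM and 1.06 and 1.74 CPM (log2 0.55 ± 0.64), and GBP1 (log2 0.12 ± 0.70) did not pass.

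The adjacent genes SAMD9 and SAMD9L went apart under CRISPRi. SAMD9L rose from 1.08 CPM to 4.44 and 5.46 CPM (log2 2.19 ± 0.42, adjusted p = 0.00240). SAMD9 fell from 27.5 CPM to 17.0 and 12.6 CPM (log2 -0.90 ± 0.20, adjusted p = 0.00764). Both genes had risen in the knockout. Of their promoter windows shown above, that of SAMD9 holds the exact ISRE letters and that of SAMD9L a near match. DDX60 was at 14.0 CPM in the vector library and 31.8 and 26.5 CPM with sgRNA1 (log2 1.05 ± 0.20). DDX60L was at 21.6 CPM and 40.04 and 31.3 CPM (log2 0.72 ± 0.17), and HELZ2 at 68.4 CPM and 97.7 and 97.0 CPM without passing (log2 0.51 ± 0.16, adjusted p = 0.0628).

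PARP9, PARP12 and PARP14 rose by less than 2-fold. PARP9 was at 26.8 CPM in the vector library and 45.0 and 43.8 CPM with sgRNA1 (log2 0.73 ± 0.16). PARP12 was at 14.9 CPM and 26.4 and 28.2 CPM (log2 0.87 ± 0.19). PARP14 was at 117 CPM and 165 and 151 CPM (log2 0.43 ± 0.12). Their partner DTX3L did not pass (log2 0.19 ± 0.12), and neither did any of the TRIM genes, whose log2 values ran from -0.11 ± 0.12 for TRIM25 to 0.43 ± 0.30 for TRIM22.

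Of the transcription factors IRF9 rose from 9.10 CPM to 16.5 and 19.4 CPM (log2 0.98 ± 0.27) and IRF7 from 12.7 CPM to 20.4 and 19.6 CPM (log2 0.65 ± 0.18). STAT2 did not pass (log2 0.30 ± 0.14). In the last group EPSTI1 alone passed, at 1.92 CPM in the vector library and 6.07 and 6.10 CPM with sgRNA1 (log2 1.66 ± 0.34, adjusted p = 0.00378). LAMP3 came near the threshold, at 0.838 CPM and 2.75 and 3.08 CPM (log2 1.79 ± 0.56, adjusted p = 0.0553).

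Whether the knockout and CRISPRi effects differ was tested as a contrast of the contrasts. The rise was larger in knockout replicate 1 for 16 of 47 members and smaller for none, where 5% of all genes were higher and 4.02% lower in this contrast. The largest differences were those of IFI44L (log2 3.62 ± 1.05, adjusted p = 0.0383), IFI6 (3.39 ± 0.22), ISG20 (2.86 ± 0.18), RSAD2 (2.84 ± 0.56) and CMPK2 (2.31 ± 0.36). SAMD9, which moved in opposite directions, differed by 1.92 ± 0.27. HERC6, IFI27, MX1, EPSTI1, XAF1, IFIT5, IRF7, ISG15, PLSCR1 and TRIM14 made up the rest. HERC5 (log2 3.03 ± 1.94), BST2 (2.91 ± 2.43), MX2 (2.72 ± 0.93), UBE2L6 (2.20 ± 1.02) and IFITM1 (2.19 ± 1.37), all with few counts in a control, had estimates of similar size and did not pass. Without sgRNA1 replicate 2 the count of larger rises was 10, with IFI44L, IFIT5, ISG15, TRIM14, EPSTI1 and XAF1 lost. With the library labelled knockout replicate 2 kept in the knockout group no member passed, and 3 of all genes did.

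The 2 NUGC4 controls were themselves apart, and they are different kinds of library by ribosomal RNA, so transduction and kind of library cannot be told apart here. In the vector library 20 members were higher and 4 lower than in wild type, with a median log2 fold change of 0.46. Over all genes 23.5% were higher and 20.7% lower. This comparison shares wild type with the knockout comparison and the vector with CRISPRi, so its values are only set beside theirs. The largest were those of IFI44L (log2 2.99 ± 0.83), IFI6 (2.40 ± 0.15), MX2 (2.26 ± 0.72), IFITM2 (1.95 ± 0.23), CMPK2 (1.75 ± 0.28), IFI27 (1.62 ± 0.20), IFITM3 (1.60 ± 0.12) and RSAD2 (1.48 ± 0.46). DDX60L (-0.74 ± 0.16), DDX60 (-0.65 ± 0.19), PARP14 (-0.58 ± 0.11) and HELZ2 (-0.39 ± 0.15) were lower. For IFI6 the vector library, at 54.8 CPM, lay between wild type and the knockout. For IFITM2 it lay above knockout replicate 1, at 8.14 against 6.71 CPM. When the fit also took in, as a knockout, the library labelled knockout replicate 2, 7 members were higher and 0 lower.

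Of 36 other genes of the pathway 23 were tested in NUGC4. None of the 10 interferon ligands had enough counts: IFNB1 had 2 counts in knockout replicate 1 and 1 in the vector library, IFNL3 had 3 counts in knockout replicate 1, and IFNA1, IFNA2 and IFNG had none in any library. In the knockout 10 genes were higher and 1 lower, where 19.5% of all genes were higher and 18.7% lower. NLRC5, the activator of MHC class I genes, rose by 0.97 ± 0.17 and IRF1 by 0.85 ± 0.13 on the log2 scale. Receptor subunits rose less, IFNGR2 by 0.50 ± 0.13, IL10RB by 0.45 ± 0.15 and IFNAR2 by 0.44 ± 0.14, and the kinase JAK2 fell (-0.65 ± 0.15). Not all of these changes were particular to the knockout. The vector library, with ARID1A not lowered, differed from wild type by log2 0.89 for IRF1, 0.36 for IFNGR2 and -0.69 for JAK2. For NLRC5 that value was -0.09, for IL10RB 0.03 and for IFNAR2 0.29. Under CRISPRi NLRC5 was higher (0.78 ± 0.20) and IFNGR1 lower (-0.63 ± 0.15). At 1 of 23 each way, this is near the shares of all genes, 4.62% higher and 4.11% lower. SOCS3, an inhibitor of JAK signalling, was at 7.59 to 9.59 CPM in wild type, 11.1 CPM in knockout replicate 1, 80.0 CPM in the vector library and 78.7 and 80.3 CPM with sgRNA1. In HepG2 it was at 7.83 and 8.75 CPM with the vector and 9.71 and 11.7 CPM with CTNNB1, near the wild-type NUGC4 level.

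In HepG2 with the stabilised CTNNB1 some members passed in each direction, mostly by small amounts, in shares not far from those of all genes. CTNNB1 itself was at 430.2 and 428 CPM with the vector and 1749.6 and 1821 CPM with the construct. Of 47 members 31 had enough counts to be tested, of which 6 were higher, 4 lower and 21 did not pass, and 16 were not tested (IFIT2, IFI27, IFI44, IFI44L, HERC5, HERC6, RSAD2, CMPK2, GBP1, DDX60, DDX60L, SAMD9, SAMD9L, IRF7, EPSTI1 and LAMP3). Over the 15703 genes tested 12.8% were higher and 11.4% lower. The members' median log2 fold change was -0.07 and that of all genes 0.00, and of the members tested 19.4% were higher and 12.9% lower. The number called higher was 2 without vector replicate 1 (IFIT5, USP18, PARP9 and PARP14 lost, with the fall of TRIM14) and 3 without vector replicate 2 (IFIT1, IFIT5 and USP18 lost), and 1 (STAT2) by the Wald test of DESeq2.

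**Figure D4:**
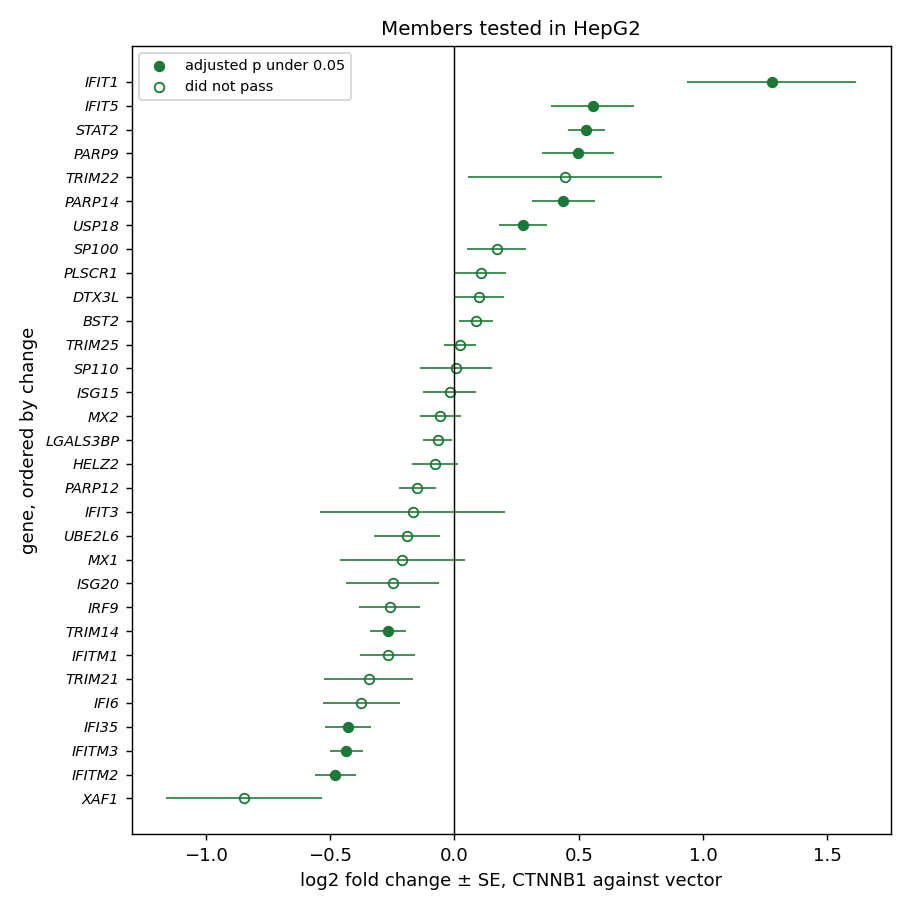
Log2 fold change with its SE for the 31 members tested in HepG2, CTNNB1 against vector, ordered by size. Filled points passed at an adjusted p under 0.05: 6 lie to the right of 0 and 4 to the left, and IFIT1 alone lies beyond 1.

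STAT2 was at 51.6 and 46.96 CPM with the vector and 71.4 and 73.8 CPM with CTNNB1 (log2 0.53 ± 0.07, adjusted p = 5.41e-06), with no overlap. IFIT1 was at 0.936 and 0.651 CPM and 1.92 and 1.91 CPM (log2 1.28 ± 0.34, adjusted p = 0.00661). IFIT5 was at 4.17 and 4.38 CPM and 6.33 and 6.58 CPM (log2 0.56 ± 0.17). The libraries of these 3 genes stood apart by group. PARP9 was at 6.04 and 7.39 CPM and 9.66 and 10.0 CPM (log2 0.50 ± 0.14), and PARP14 at 8.77 and 10.6 CPM and 13.2 and 14.0 CPM (log2 0.44 ± 0.13). The rise of USP18, from 20.4 and 21.2 CPM to 25.1 and 26.6 CPM (log2 0.28 ± 0.10), was lost when any of the 4 libraries was left out.

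Of the 4 membrane factors 2 fell and 2 did not pass. IFITM3 fell from 123 and 125 CPM to 88.5 and 99.4 CPM (log2 -0.43 ± 0.07, adjusted p = 1.35e-05), and IFITM2 from 46.2 and 42.8 CPM to 31.7 and 33.5 CPM (log2 -0.48 ± 0.08, adjusted p = 0.000106). IFITM1 was at 20.4 and 18.2 CPM and 15.1 and 17.5 CPM and did not pass (log2 -0.27 ± 0.11, adjusted p = 0.0798). BST2, the remaining membrane factor, was at 97.0 and 86.3 CPM and 98.0 and 101 CPM and did not pass (log2 0.09 ± 0.07). IFI35 fell from 30.0 and 30.2 CPM to 22.1 and 23.7 CPM (log2 -0.43 ± 0.09), and TRIM14 from 65.7 and 62.3 CPM to 53.4 and 55.5 CPM (log2 -0.27 ± 0.07). In these falls, which passed, all CTNNB1 libraries lay under both vector libraries.

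Members that did not pass included genes with a large change in the knockout. ISG15 was at 27.0 and 22.2 CPM with the vector and 22.7 and 26.5 CPM with CTNNB1 (log2 -0.02 ± 0.11). IFI6 was at 10.6 and 7.93 CPM and 7.40 and 7.02 CPM (log2 -0.37 ± 0.15, adjusted p = 0.0796). XAF1, at 2.13 and 1.72 CPM and 0.904 and 1.23 CPM, had the lowest value of all 31 and came close to the threshold (log2 -0.84 ± 0.31, adjusted p = 0.0507). Of the 36 other pathway genes 25 were tested, with 8% higher and 8% lower, against 12.8% and 11.4% of all genes. PIAS1 (0.42 ± 0.09) was higher while NLRC5 (-0.61 ± 0.11) and IFNGR1 (-0.26 ± 0.08) were lower.

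The basal levels of the lines differed in both directions. In HepG2 with the vector 14 members were higher than in wild-type NUGC4, 27 were lower and 6 did not pass (IFIT5, IFI6, IFI44L, ISG15, HERC5 and STAT2). With a median log2 difference of -1.24 the members leaned to NUGC4, and over the 21074 genes tested 40.4% were higher in HepG2 and 44.5% lower. The membrane factors were all higher in HepG2, and the helicase and SAMD9 group was all lower. Line, transduction and kind of library cannot be told apart in this comparison. Against the NUGC4 vector library, which is of the same kind by ribosomal RNA, 40 members kept the same call or lack of one. The log2 difference of 3 members reversed in sign there.

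**Figure D5:**
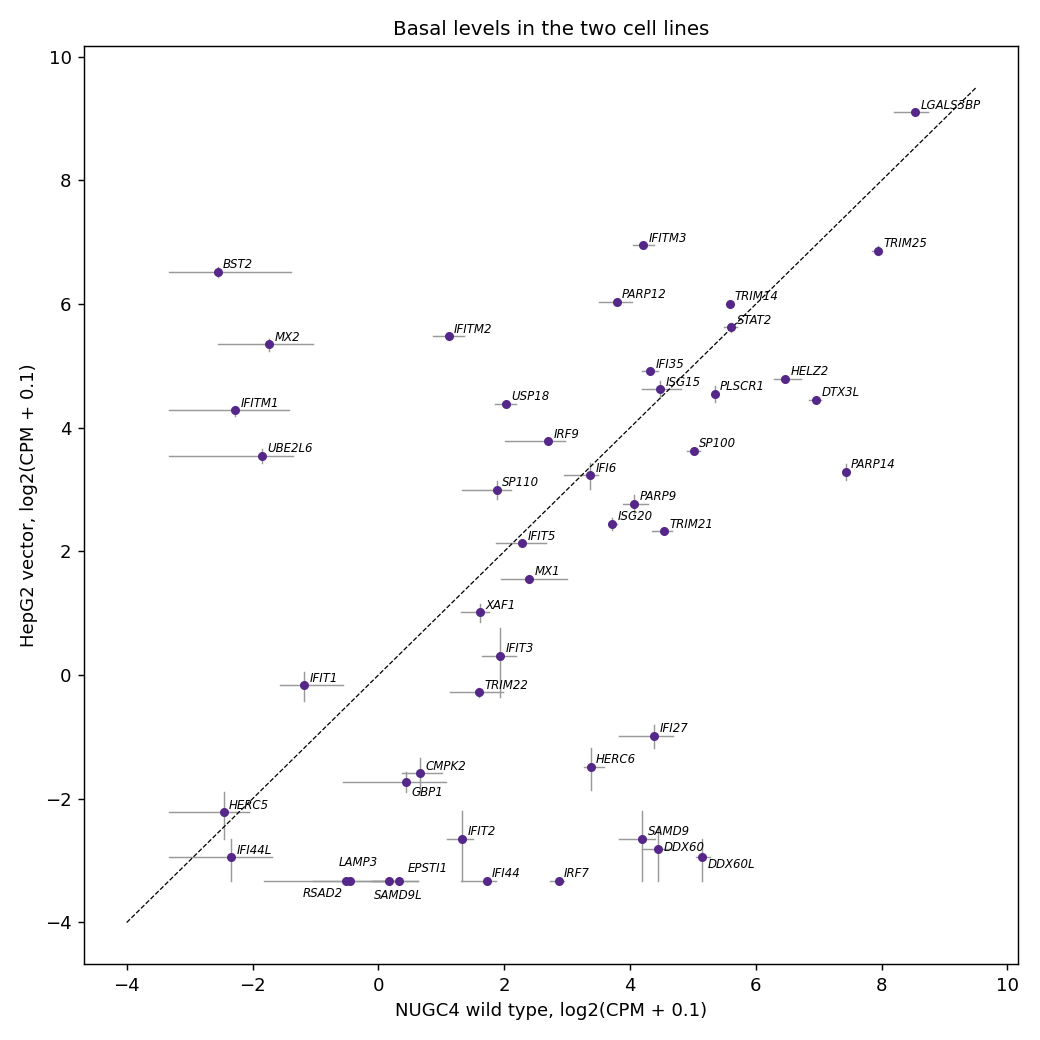
Mean level of each member in wild-type NUGC4 (horizontal) and in HepG2 with the vector (vertical), each as the log2 of CPM plus 0.1, with lines from the lowest to the highest library. The dashed line marks equal levels. BST2, MX2, IFITM1 and UBE2L6 lie far above it and DDX60, DDX60L, SAMD9 and IRF7 far under it.

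BST2 showed the widest gap upward, with 91.7 ± 7.60 CPM in HepG2 (SD, n = 2) against 0.0704 ± 0.141 CPM in wild-type NUGC4 (SD, n = 4), a log2 difference of 10.01 ± 0.24 (adjusted p = 1.74e-20). MX2 was at 40.6 ± 3.91 CPM in HepG2 and 0.200 ± 0.133 CPM in NUGC4 (log2 7.75 ± 0.23), whereas its relative MX1 was lower in HepG2, at 2.84 ± 0.165 against 5.17 ± 1.89 CPM (log2 -0.81 ± 0.26). The MX genes are adjacent on chromosome 21. Per kilobase of exon MX1 was the higher in wild-type NUGC4, at 0.600 against 0.0153 CPM per kilobase, and MX2 in HepG2, at 3.12 against 0.330. IFITM1 was at 19.3 ± 1.57 CPM in HepG2 and 0.106 ± 0.117 CPM in NUGC4 (log2 7.47 ± 0.30). UBE2L6 differed by 6.09 ± 0.33, IFITM2 by 4.47 ± 0.13, IFITM3 by 2.80 ± 0.09, USP18 by 2.45 ± 0.14, and PARP12 by 2.29 ± 0.11 on the log2 scale. Smaller excesses in HepG2 were those of IFIT1 (1.24 ± 0.50), SP110 (1.19 ± 0.19), IRF9 (1.13 ± 0.18), IFI35 (0.65 ± 0.10), LGALS3BP (0.62 ± 0.11) and TRIM14 (0.47 ± 0.08). Against the NUGC4 vector library SP110, IFI35 and TRIM14 were not higher, and IFIT1 did not pass. The call of IFIT1 was also lost without wild-type replicate 1, 2 or 4 or HepG2 vector replicate 1.

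Several members expressed in NUGC4 had almost no counts in HepG2. DDX60L had 1 count in the HepG2 vector libraries and 1704 in wild-type NUGC4, a ratio of 1016 with a 95% exact counting interval of 182 to 40168. DDX60 had 1 and 1035 counts (ratio 617, interval 111 to 24407), and SAMD9 2 and 884 (ratio 264, interval 72.8 to 2180.3). IRF7 had no counts in any HepG2 library and 347 in wild-type NUGC4, so it was at least 69.0-fold lower in HepG2 (floor of 3 counts over the group). By the same floor IFI44 was at least 30.4-fold lower, EPSTI1 10.9-fold, SAMD9L 9.54-fold, LAMP3 5.96-fold and RSAD2 5.57-fold. IFIT2 had 2 counts against 117 (ratio 34.9, interval 9.45 to 292). Each of these genes had 0 to 4 counts in each CTNNB1 library, so none came near its NUGC4 level there, while a fall or a small rise was not detectable at this depth.

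IFI27 was at 0.341 and 0.473 CPM in the HepG2 vector libraries (log2 -5.54 ± 0.36) and HERC6 at 0.341 and 0.177 CPM (log2 -5.30 ± 0.30), both far under wild-type NUGC4. PARP14, among the highest members per kilobase in NUGC4, was at 8.77 and 10.6 CPM in HepG2 (log2 -4.09 ± 0.11). The log2 difference was -2.51 ± 0.45 for CMPK2, -2.48 ± 0.61 for GBP1, -2.46 ± 0.09 for DTX3L, -2.18 ± 0.14 for TRIM21, -1.92 ± 0.33 for TRIM22, -1.62 ± 0.12 for HELZ2 and -1.56 ± 0.31 for IFIT3. SP100 (-1.34 ± 0.11), ISG20 (-1.25 ± 0.14), PARP9 (-1.24 ± 0.14), TRIM25 (-1.03 ± 0.08), PLSCR1 (-0.74 ± 0.10) and XAF1 (-0.58 ± 0.26) were lower by smaller amounts. The call of XAF1 was lost without wild-type replicate 1 or 4 or either HepG2 vector library, and that of GBP1 against the NUGC4 vector library. ISG15 differed by less than its spread, with 24.6 ± 3.40 CPM in HepG2 (SD, n = 2) and 22.2 ± 4.15 CPM in wild-type NUGC4 (SD, n = 4). Per kilobase of exon LGALS3BP was the highest member in HepG2 too, at 154 CPM per kilobase, followed by IFITM3 at 91.9 and BST2 at 81.9.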

How the data were processed

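Gene expression was measured by RNA-seq in 13 libraries of NUGC4 and HepG2 cells. The authors deposited 1 table of raw read counts per gene symbol. Reads were aligned with STAR 2.7.10a to hg38, per the submitters' processing notes. For the counting tool, the annotation and the strand setting, nothing is given in the sources used here. Of 14 columns 13 matched a sample's labels, and the other 1, with a knockout name, was not used. The members and gene lists were chosen with earlier results of these data known. All members could be named, with values in every library for those that changed most, for role groups of mixed direction and for members called in both ARID1A comparisons.

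Counts were tested with edgeR 4.0.16 (quasi-likelihood test, TMM factors, filterByExpr, Benjamini-Hochberg adjustment over all genes, adjusted p under 0.05). Fits used 8 NUGC4 libraries, 4 HepG2 libraries, or 12 libraries for basal levels. The SE is the log2 fold change divided by the root of F. Levels are CPM on 1 TMM scale. Exon lengths and positions came from GENCODE v29 and promoters from RefSeq GRCh38.p14. Counting intervals are exact. Totals of 9167761 to 23914120 counts leave members under about 1 CPM with few counts. Alternatives were DESeq2 1.42.0 (size factors and Wald test), no filter on low counts, a minimum fold change of 2 on top of the adjusted p, a replicate block, compared groups only, the library labelled knockout replicate 2 kept, another basal group and leaving out each library. The script was tested on simulated data. The values of 1 pathway gene are not reported here.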

Additional observations from a re-analysis of the deposited data

Results flagged for a closer look

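Among the 4 wild-type libraries of NUGC4, 6 of the 47 members had a library whose distance to the others passed Dixon's 95% critical value. For continuous, normally spread values chance flags about 1 in 20 groups, which is 2.35 of 47. Members with few counts, such as BST2 and IFIT1, need not follow that rate, so 2.35 is only a rough guide. IFIT1 was at 0.578 CPM in replicate 3 and at 0.240 to 0.282 CPM in the others. BST2 was at 0.282 CPM in replicate 1 and at 0 in the others. IFI6 was at 7.61 CPM in replicate 1 and at 10.98 to 11.19 CPM in the others. IFI44 was at 2.40 CPM in replicate 2 and at 3.38 to 3.56 CPM in the others. RSAD2 was at 1.19 CPM in replicate 4 and at 0.385 to 0.423 CPM in the others. SAMD9L was at 1.44 CPM in replicate 3 and at 0.845 to 0.913 CPM in the others. The flags fell on all 4 libraries, and knockout replicate 1 lay above every wild-type library for each of these genes.

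The rise of 16 members was larger in knockout replicate 1 than under CRISPRi by a test of the difference between the contrasts. They were IFIT5, IFI6, IFI27, IFI44L, ISG15, HERC6, MX1, RSAD2, CMPK2, ISG20, SAMD9, TRIM14, IRF7, EPSTI1, XAF1 and PLSCR1. Each rise is taken from its own control, and the controls differed, so a larger rise need not mean a higher level. TRIM14 was at 79.2 CPM in knockout replicate 1, 90.9 CPM in the vector library and 100 and 104 CPM with sgRNA1. IFI27 reached 142 CPM in knockout replicate 1 and 159.5 and 140.5 CPM with sgRNA1.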

How the results depend on the processing

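With DESeq2's size factors in place of TMM, every member stayed on its side of the threshold in all 6 comparisons, and the median of all genes moved by at most 0.09 in size on the log2 scale. The count of members higher in the knockout was 43 or 44 with any library left out, and the count lower was 1 each time. Under CRISPRi, leaving out a library gave 9 to 26 members higher and 0 to 1 lower, the lowest without sgRNA1 replicate 2 (9) and sgRNA1 replicate 1 (13). For CTNNB1 it gave 2 to 5 higher and 3 to 6 lower. For the difference of the effects it gave 10 to 20 higher and 0 lower, for the vector against wild type 18 to 22 and 3 to 4, and for the basal levels 13 to 15 and 26 to 27.

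TRIM25 left the members lower in the knockout, for a count of 0, with no filter on low counts, with a 2-fold minimum (log2 of 1 in size), with only the compared groups in the fit, and with the library labelled knockout replicate 2 kept. With that library kept, 30 members were higher in the knockout, 7 higher and 0 lower in the vector against wild type, and 0 higher in the difference. With the 2-fold minimum CRISPRi had 10 members higher and 0 lower, CTNNB1 1 and 0, and the vector against wild type 10 and 0. The Wald test of DESeq2 called 1 member higher with CTNNB1. With the NUGC4 vector library as the basal level, the log2 difference reversed for IFI35 (-0.025), TRIM14 (-0.44) and SP110 (-0.15). The cause of these shifts was not tested.

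Whether replicate numbers shared between groups mark pairs could not be settled. Same-numbered wild-type and sgRNA1 libraries deviated together with r of 0.11 and 0.05, and the HepG2 libraries with -0.11. The HepG2 value is the same for both replicate numbers by construction, and no value for libraries known to be paired was at hand. With a replicate block 43 members were higher in the knockout, 31 under CRISPRi and 5 with CTNNB1, and 1 was lower in the difference. A crossed replicate block in HepG2, chosen after seeing the data, gave 9 members lower.

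Over all genes, CRISPRi counts (higher, then lower) were 2251 and 1698 with the replicate block, 2184 and 1966 with the compared groups only, 311 and 332 with the 2-fold minimum, 443 and 387 without sgRNA1 replicate 1, and 421 and 328 without sgRNA1 replicate 2, with 1320 higher without wild-type replicate 3. CTNNB1 counts were 1132 and 1067 by the Wald test, 179 and 250 at the fold minimum, 1212 and 1191 without vector replicate 1, and 2807 lower with the crossed block. The knockout had 1450 and 1888 at the fold minimum, and 1870 lower with the labelled library kept. The vector against wild type had 1467 and 2385, and 1480 and 1034, in those settings. The difference had 517 and 477, and 3 and 0, in those settings, and 2149 and 1856 with the block. It had 466 and 349 without sgRNA1 replicate 1, 544 and 444 without replicate 2, and 1192 lower without wild-type replicate 3.

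Members under about 1 CPM rest on few counts, and 16 could not be tested for CTNNB1. The knockout and vector groups hold 1 library each.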

Other observations

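The library labelled knockout replicate 2 held member levels near those of the vector library. Its median member stood at 9.46 CPM, that of the vector library at 9.34 CPM and that of knockout replicate 1 at 24.9 CPM. IFI6 was at 47.2 CPM in it, beside 54.8 and 163 CPM in those libraries. RSAD2 was at 1.33 CPM, beside 1.68 and 13.8 CPM. IFI27 was at 60.6 CPM, beside 64.2 and 142 CPM. IFITM3 was at 66.0 CPM, beside 57.0 and 60.4 CPM. ISG20 was at 23.2 CPM, beside 24.5 and 137 CPM. IFI44L differed between them, with 0.232 CPM beside 0.898 CPM in the vector library. The likeness was not limited to members. Over genes with a mean of at least 5 CPM, the labelled library and the vector library differed by a chi-square of 2.89 per degree of freedom. It was 371.9 between the labelled library and knockout replicate 1, and 3.19 to 27.6 between replicates of the other groups. The labels also name a second vector sample, which no column matched. The reason for the likeness was not tested.

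In all, 24 of the 47 members lie in 10 groups of neighbours less than 200 kilobases apart. In the knockout all neighbours were higher in each of these groups, where 45 of all 47 members had a positive log2 fold change. Under CRISPRi the pair of SAMD9 and SAMD9L was the one in which both passed in opposite directions. CMPK2 and RSAD2, DDX60 and DDX60L, and IFITM2 and IFITM3 each passed together as higher. HERC6 passed and HERC5, with 2 counts in the vector library, did not. MX1 passed and MX2 did not. Between the lines, neighbours that passed in opposite directions were IFIT1 (higher in HepG2) against IFIT2 and IFIT3, MX2 (higher) against MX1, and SP110 (higher) against SP100.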
